A study of Mus musculus with 8 samples.

Results

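Lumbar spinal cord microglia of A20 cKO mice were compared between 2 days after sciatic nerve transection and the naive state, to ask which transcripts differ after injury in cells meant to lack A20. The comparison used 2 of the 8 single-cell RNA-seq libraries of the series, taken by their labels, with 1 library in each group. In this droplet assay a barcode names the cell and a molecular tag (UMI) the single RNA molecule. Barcodes with at least 1000 UMIs, at least 500 genes and at most 10% mitochondrial UMIs were kept as cells, which gave 667 cells on day 2 and 2922 in the naive library, 3589 of the 14626 kept cells of all libraries. All mice were C57BL/6 young adults heterozygous for Cx3cr1-yfp-creER, an allele that places YFP and a tamoxifen-inducible Cre under the control of the fractalkine receptor locus, which microglia and some other macrophages use. A20 cKO mice were also Tnfaip3 fl/fl, and control mice lacked the floxed alleles. Per the methods, recombination was induced with tamoxifen in the days before each experiment, the injury is labelled as bilateral, and cells were gated on size, singlets and YFP. Cords of several animals were pooled for each library, so the animals within a library cannot be told apart and no test between the groups was possible.

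Tnfaip3 encodes A20, a ubiquitin-editing enzyme that limits signalling from tumour necrosis factor and toll-like receptors to NF-kB and restrains cell death. Microglia are the macrophages that live in brain and spinal cord tissue. At rest they carry a characteristic set of receptors such as P2ry12, and after a peripheral nerve is cut those near the affected motor neurons and sensory endings divide and change their transcripts. Immediate-early genes such as Fos and Egr1 respond to many stimuli within minutes, tissue dissociation among them, and their RNA is short-lived.

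The day 2 library held 700 barcodes and the naive library 2980. Kept cells carried 3033873 UMIs on day 2 (median 4128 per cell) and 8919100 in the naive library (median 2824), with a median of 1.68% and 1.16% mitochondrial UMIs. The pair of libraries shared 19 barcodes, and day 2 shared 44 with A20 cKO day 1, 16 with A20 cKO day 3 and 17 with control day 3, but 2, 5 and 2 with control naive, day 1 and day 2. Without any barcode that occurs in more than 1 library the counts of differing genes given below were 250 and 233 in place of 255 and 236. The labelled cell type was checked on 8 microglial markers, whose summed level was 18936 CPM (UMIs for every 1000000 of the library) in the naive library and 11892 on day 2, with no marker at 0. Markers of T or NK cells summed to 0.561 CPM and 0, and those of fibroblasts to 0.112 CPM and 0, with Cd3e, Cd3g, Col1a1 and Col3a1 at 0 in both libraries. For perivascular macrophages the sums were 6.62 and 5.93 CPM, with Cd163, Lyve1 and F13a1 at 0 in both libraries, and for neurons 5.83 and 12.9 CPM. Oligodendrocyte markers summed to 220.8 and 293 CPM, astrocyte markers to 393.6 and 329 CPM and neutrophil markers to 45.5 and 51.1 CPM. B cell markers summed to 31.7 and 28.3 CPM, with Cd79a, Ms4a1 and Ebf1 at 0 on day 2, and endothelial or mural markers to 26.9 and 35.3 CPM. The part of such cells in the results below was not tested. Monocyte markers summed to 38.3 and 98.9 CPM, of which Plac8 made up 32.1 and 83.4, and Ly6c2 was at 0 on day 2. Choroid plexus and ependymal markers summed to 129.5 and 396.9 CPM, nearly all of it Ttr. Of the Ttr UMIs 95.8% on day 2 and 85.3% in the naive library lay under 1 barcode, and without shared barcodes the log2 ratio of Ttr was −0.32 in place of 1.62, and in sums of thinned cells it was 6.01, so no direction is read from it. Tnfaip3 itself (ENSMUSG00000019850, chromosome 10, 19000910 to 19015657, minus strand, GRCm38) stood at 47.4 CPM in the naive library and 52.4 on day 2, a log2 ratio of 0.15 (−0.13 to 0.41). Since only the 3′ end of a transcript is read, which the floxed exons need not include, this level does not check the deletion.

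Most transcripts differed little between the libraries. Aspm, Il12b, Ccnb1 and Mki67 were among the highest ratios, with predicted genes and ribosomal protein pseudogenes beside them, and Egr1, Fos and Fosb had the lowest. UMIs were summed per library and scaled to CPM, and 0.5 UMIs were added before taking the log2 ratio of day 2 to naive. Ranges after values are exact 95% intervals and cover counting error only. Genes are called measured here when the pair of sums together held 100 UMIs or more. Among these 8921 genes 76.4% had a log2 ratio within 0.5 of 0 and the median was −0.07. On day 2, 255 genes (2.86%) were at least 2-fold higher and 236 (2.65%) at least 2-fold lower than in the naive library. The interval lay wholly beyond 2-fold for 153 of the former and 84 of the latter. In summed UMIs, fewer cells with a transcript and less of it per cell cannot be told apart, and values per cell are given further on.

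**Figure D1:**
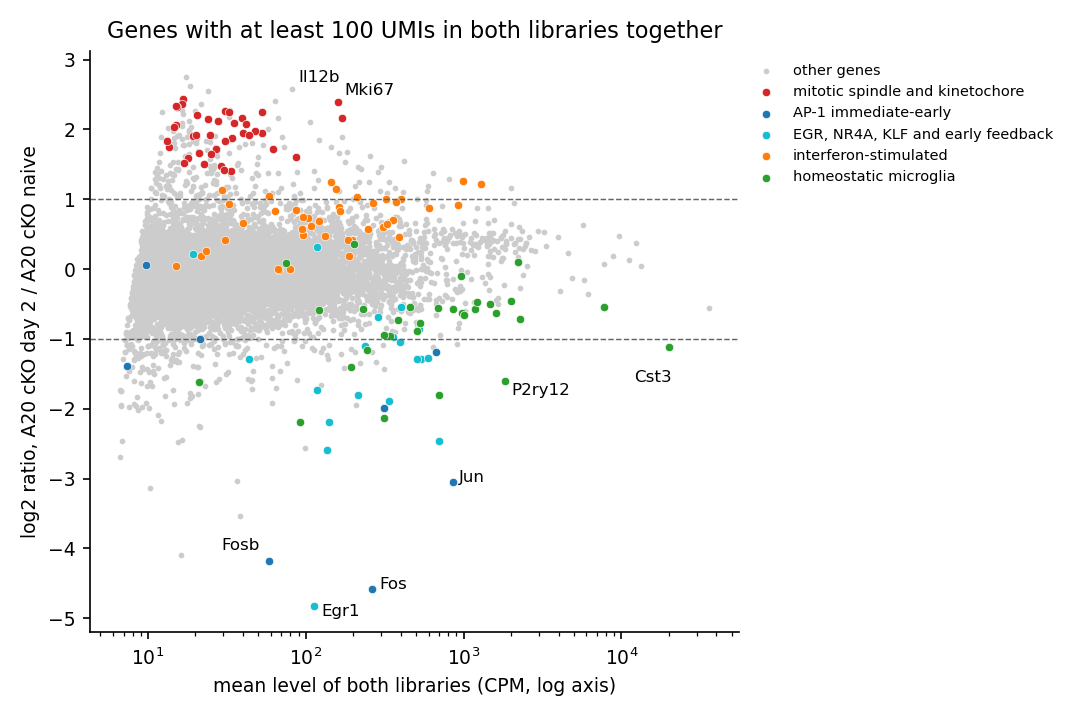
Log2 ratio of A20 cKO day 2 to A20 cKO naive (vertical axis) against the mean level of both libraries in CPM (horizontal log axis), 1 point a gene, with genes of 5 lists in colour and dashed lines at 2-fold. The points of mitotic genes lie above the upper line, Egr1, Fos and Fosb lie lowest, and the homeostatic genes lie mostly just below 0.

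Genes of the mitotic spindle and kinetochore were higher on day 2. With no minimum of UMIs, all 42 members were at least 2-fold higher, with a median log2 ratio of 1.93, a lowest value of 1.40 and every interval above 0. The minimum of 100 UMIs was passed by 39 of them, all but Kif20a, Ect2 and Aurka, and 10 of the 39 passed it only through their day 2 UMIs and so had to be higher. For this reason the count of 39, beside 2.86% of all measured genes, is no support of its own, and the same holds for counts of measured members of this list in the other comparisons below. Mki67, which encodes the proliferation antigen Ki-67 that coats mitotic chromosomes, stood at 51.1 CPM in the naive library and 269.3 on day 2, a log2 ratio of 2.40 (2.23 to 2.57). Top2a, the topoisomerase that untangles replicated DNA, went from 61.8 to 277.2 CPM (2.17, 2.01 to 2.32). Both day 2 intervals lay clear of the naive ones. Casc5, a kinetochore scaffold, stood at 18.3 and 86.7 CPM, and Cenpe, a motor that moves chromosomes to the spindle centre, at 21.8 and 83.7 CPM. The condensin subunits Smc2 (43.1 and 131.5 CPM) and Smc4 (28.8 and 95.3 CPM) and the cyclin-dependent kinase subunit Cks1b (22.9 and 92.0 CPM) were among the 15 highest ratios of genes averaging 50 CPM or more. Cdk1, the kinase that starts mitosis, went from 12.6 to 41.2 CPM, and its partner Ccnb1 from 5.16 to 28.0 CPM.

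The upstream sequences of Top2a and Mki67 are shown because they hold the CCAAT box, the short sequence that the factor NF-Y binds in many genes of this group. Capitals mark CCAAT or its complement ATTGG in the 250 bases before each RefSeq start, written 5′ to 3′ on the strand of the gene (RefSeq, GRCm38.p6). Top2a lies upstream at chr11:99024190-99024439 and Mki67 at chr7:135716380-135716629, both on the minus strand.
Top2a: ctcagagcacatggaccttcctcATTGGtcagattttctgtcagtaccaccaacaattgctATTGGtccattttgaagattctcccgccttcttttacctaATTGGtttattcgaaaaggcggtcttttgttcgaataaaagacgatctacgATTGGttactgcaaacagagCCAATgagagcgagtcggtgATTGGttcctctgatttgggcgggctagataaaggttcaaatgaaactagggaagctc
Mki67: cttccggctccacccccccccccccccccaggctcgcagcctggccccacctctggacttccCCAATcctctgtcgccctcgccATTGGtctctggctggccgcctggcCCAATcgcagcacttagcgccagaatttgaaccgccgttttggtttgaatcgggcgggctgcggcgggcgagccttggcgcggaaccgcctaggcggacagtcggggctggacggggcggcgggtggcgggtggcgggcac
Top2a held 6 such boxes and Mki67 3. On either strand, 25 of the 33 mitotic genes found in the promoter table held the box (75.8%) against 33.9% of all 32851 promoters of this length. The element TTTGAA or TTCGAA, known as CHR, was in 11 of the 33 and in 17.2% of all, and in 11 of 34 interferon-stimulated genes. Among the 30 DNA replication genes found, 19 held CCAAT. Such matches describe letters and not bound sites.

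Genes of DNA replication were higher as well, by less. With no minimum, 25 of 36 members were at least 2-fold higher and 0 lower, with a median log2 ratio of 1.17. Of the 31 measured members 21 were, beside 2.86% of all measured genes, 5 of the 31 having passed the minimum only through day 2. Rrm2, a subunit of the enzyme that makes deoxyribonucleotides, stood at 12.2 CPM in the naive library and 40.9 on day 2. Uhrf1, which copies DNA methylation to the new strand, stood at 6.62 and 25.1 CPM, and the replicative helicase subunit Mcm6 at 19.3 and 42.5 CPM. The sliding clamp Pcna, at 55.6 and 82.4 CPM, stayed under 2-fold (0.57, 0.34 to 0.79). Of 20 measured cyclins, inhibitors and RB or E2F genes 9 were at least 2-fold higher, led by the mitotic cyclins Ccnb1 (2.43) and Ccna2 (7.06 and 36.6 CPM, 2.37). Of these 20, 3 passed the minimum only through day 2 and so had to be higher. With no minimum, 15 of 28 members were at least 2-fold higher and 1 lower. The D-type cyclin Ccnd1, which carries growth factor signals, stood at 168.4 and 212.6 CPM, and the inhibitor Cdkn1c was lower, at 10.8 and 2.64 CPM. Cdkn1c passed the minimum only through its naive UMIs and so had to be lower.

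Histone genes were mixed. In all, 6 of 14 measured members were at least 2-fold higher and 1 lower, beside 2.86% and 2.65% of all measured genes. Of the 14, 1 passed the minimum only through day 2 and so had to be higher. Among those higher were the linker histone Hist1h1b at 40.0 and 172.4 CPM (2.11, 1.91 to 2.31), Hist1h2ap at 129 and 306.5 CPM and Hist1h2ab at 6.84 and 29.7 CPM. The linker histone Hist1h1e stood at 242.8 and 238 CPM (−0.03, −0.15 to 0.09), and another, Hist1h1c, was lower at 109.9 and 43.2 CPM (−1.34, −1.62 to −1.08). Histone mRNAs without a poly(A) tail are poorly captured by this chemistry, and near-identical copies share reads. The growth genes linked to MYC had 0 of 16 measured members past 2-fold and a median of 0.40. Myc itself stood at 54.8 CPM in the naive library and 41.5 on day 2 (−0.40, −0.69 to −0.12). Stmn1, which destabilises microtubules, was higher at 148.3 and 353 CPM.

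Dividing cells were then counted one by one on cells thinned to 2000 UMIs, which evens out depth. A cell counted as G2/M class when 3 or more of 18 core G2/M genes had a UMI, and otherwise as S class when 3 or more of 12 core S genes did. In the naive library 310 shallower cells were left out and on day 2 41, leaving 2612 and 626 cells. The G2/M class held 59 naive cells (2.26%, 1.72 to 2.90) and 74 day 2 cells (11.8%, 9.40 to 14.6), a difference of 9.56 percentage points (7.17 to 12.4). Without thinning the shares were 2.94% and 14.4%. Near the threshold, 14 day 2 cells (2.24%) held exactly 2 core genes and 25 naive cells (0.957%) did. The S class held 46 naive cells (1.76%) and 23 day 2 cells (3.67%), a difference of 1.91 points (0.568 to 3.74), and 2.87% and 10.0% without thinning. Among the other libraries, control naive had 0.199% of cells in the G2/M class, with 0.0930% on control day 1, 12.5% on control day 2 and 7.61% on control day 3, and 2.29% and 6.51% on A20 cKO days 1 and 3. Day 2 was thus the highest of the 4 A20 cKO libraries, and its interval overlapped that of control day 2 (11.4 to 13.6). This overlap held for thinned cells at this limit only. Without thinning, control day 2 had 28.3% of cells in the class against 14.4% on A20 cKO day 2. Of thinned control day 2 cells 13.1% held exactly 2 core genes, against 2.24% on A20 cKO day 2. Differences between animals or preparations are not covered by these intervals.

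**Figure D2:**
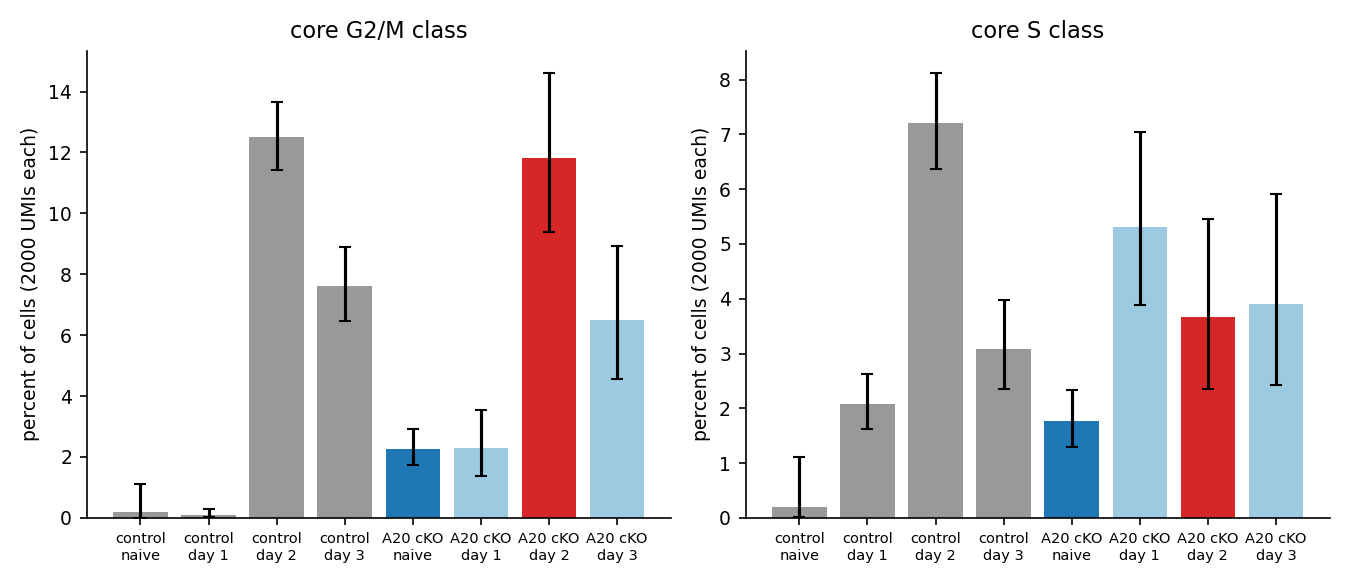
Share of cells in the core G2/M class (left) and the core S class (right) in each of the 8 libraries, in percent of cells thinned to 2000 UMIs, with exact 95% binomial intervals as error bars. The A20 cKO day 2 bar stands at 11.8% in G2/M against 2.26% in A20 cKO naive, and at 3.67% against 1.76% in S.

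Within the G2/M class the mitotic genes differed little between the libraries. Summed over the 59 and 74 cells, mitotic genes had a median log2 ratio of −0.04 over 42 measured members (30 UMIs or more in the pair of sums), with 1 past 2-fold, where 2.4% of 4829 genes were at least 2-fold higher and 2.46% at least 2-fold lower. These genes chose the cells, so the value is a description. Fos stood at 383.5 CPM in naive G2/M cells and 7.55 on day 2 (−5.50, −7.57 to −4.27), and Jun at 1098 and 186.9 CPM (−2.55, −2.89 to −2.23). Egr1, at 162.5 and 7.55 CPM, was also lower. Outside the cell cycle genes the highest ratios in this class were those of Tulp3, a ciliary trafficking factor (1 UMI and 44, log2 ratio 4.11, 2.12 to 10.0), the intermediate filament gene Nes (3 UMIs and 35, 2.56, 1.095 to 5.106) and the immune receptor Cd244 (6 UMIs and 62, 19.5 and 117.1 CPM). Each of these reached the minimum of 30 UMIs only through its day 2 UMIs and so had to be higher. Their rank is a description. Apoe, the lipid carrier of activated microglia, stood at 221 and 1089 CPM in these cells (2.29, 1.94 to 2.69) and the chemokine Ccl4 at 45.5 and 219 CPM. The protease gene Adamts1 (27 UMIs and 3, −3.76, −6.32 to −2.25) and the lipogenic gene Thrsp (91.0 and 13.2 CPM) were lower. In this class Fos, Egr1, Adamts1 and Thrsp reached the minimum only through their naive UMIs and so had to be lower. Their low rank is likewise a description. Homeostatic genes had a median of −0.44 in the class, with 4 of 30 at least 2-fold lower. In the S class 2.69% of 2042 genes were at least 2-fold higher and 3.13% lower. Fos and Egr1 had 51 and 47 UMIs in the 46 naive cells and 0 in the 23 day 2 cells, so both reached the minimum only through naive cells. In cells of neither class 1.35% of 8454 measured genes were at least 2-fold higher and 2.5% lower. There the mitotic list was measured by 7 genes, of which 4 were at least 2-fold higher, at a median of 1.03.

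Most measured immediate-early genes were lower on day 2, some of them far lower. The AP-1 group, whose proteins pair to bind DNA, had 6 of 8 measured members at least 2-fold lower and 0 higher. Their median log2 ratio was −1.69, and 2.65% of all measured genes were that much lower. Fosb and Fosl2 passed the minimum only through their naive UMIs and so had to be lower. The count is therefore no support of its own, nor are counts of measured AP-1 members in the other comparisons below. With no minimum, 6 of 10 members were at least 2-fold lower and 2 higher, at a median of −1.29. Fos stood at 507.6 CPM (492.9 to 522.6) in the naive library and 21.1 (16.2 to 26.9) on day 2. Jun, the most abundant, stood at 1527 and 183.6 CPM (−3.05, −3.18 to −2.93), Fosb at 110.2 and 5.93 CPM, Jund at 500.4 and 126.2 CPM and Junb at 926.9 and 406.4 CPM. Neither Fos nor Jun rested on a few naive cells, since the 10 cells with most UMIs held 4.26% and 2.63% of them, but on day 2 they held 48.4% of the 64 Fos UMIs. Per cell of 2000 UMIs, the naive median was 5 AP-1 UMIs and the day 2 median 1. In the group of EGR, KLF and feedback genes 13 of 19 measured members were at least 2-fold lower, at a median of −1.28. Egr1 passed the minimum only through its naive UMIs and so had to be lower, which limits this count in the same way. With no minimum, 15 of 28 members were at least 2-fold lower and 4 higher, at a median of −1.08. Egr1 stood at 219.4 and 7.58 CPM, the phosphatase Dusp1, which switches off MAP kinases, at 235.7 and 38.9 CPM, and the antiproliferative gene Btg2 at 1179.6 and 213.6 CPM. Ier2 (230.4 and 50.4 CPM), Klf2, a factor that holds macrophages quiescent (528 and 142.7 CPM), and Zfp36, which destabilises cytokine mRNA (182.3 and 54.7 CPM), followed. Ier3 and Socs3, with log2 ratios of 0.21 and 0.31, were the measured members above 0. Genes that glucocorticoids raise had 4 of 7 measured members at least 2-fold lower, namely Tsc22d3 (456.2 and 169.8 CPM), Ddit4 (256.4 and 95.6 CPM), Txnip (268.4 and 121.3 CPM) and the kinase Sgk1 (720.03 and 295.3 CPM), which is also in the EGR group. The heat shock genes, which also respond to handling, had 0 of 9 past 2-fold and a median of 0.42.

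The Fos and Dusp1 upstream sequences are shown because both hold the core of the cyclic AMP response element, bound by CREB and ATF factors. Both transcripts were also at least 2-fold lower. Capitals mark the core TGACGT, and in Dusp1 also the full element TGACGTCA, in the 250 bases before the RefSeq start (GRCm38.p6). The Fos sequence is chr12:85473640-85473889 on the plus strand and the Dusp1 sequence chr17:26508473-26508722 on the minus strand.
Fos: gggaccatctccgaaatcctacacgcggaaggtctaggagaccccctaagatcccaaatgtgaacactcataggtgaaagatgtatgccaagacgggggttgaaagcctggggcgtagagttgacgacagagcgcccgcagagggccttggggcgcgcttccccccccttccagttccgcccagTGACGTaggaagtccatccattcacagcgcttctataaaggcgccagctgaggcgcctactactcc
Dusp1: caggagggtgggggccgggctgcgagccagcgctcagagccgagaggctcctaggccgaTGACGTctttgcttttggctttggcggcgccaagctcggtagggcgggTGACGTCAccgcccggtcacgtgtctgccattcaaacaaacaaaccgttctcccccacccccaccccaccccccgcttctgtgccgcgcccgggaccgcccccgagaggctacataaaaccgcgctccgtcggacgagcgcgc
In Fos this core begins 66 bases before the start, and in Dusp1 at 191 and 143, the latter as the full element. On either strand the core was in 3 of 9 AP-1 genes found, 6 of 22 genes of the EGR group and 6.47% of all promoters. The full element was in 0 of the 9, 2 of the 22 and 1.55% of all promoters.

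In these transcripts day 2 lay nearer to control naive than A20 cKO naive did. In control naive Fos was at 20.4 CPM, Egr1 at 11.7 and Jun at 337.6, against 21.1, 7.58 and 183.6 on A20 cKO day 2. A20 cKO day 1 was also low, with Fos at 13.2 and Egr1 at 11.6 CPM, and A20 cKO day 3 stood near A20 cKO naive, with 503.7 and 210.1 CPM. Control day 1 had the highest level of all, with Fos at 4105 CPM. Among the A20 cKO libraries naive and day 3 were thus high and day 1 and day 2 low. Preparation and day cannot be told apart with 1 library a group. Heat shock genes summed to 3457 CPM in A20 cKO naive and 4111 on day 2.

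**Figure D3:**
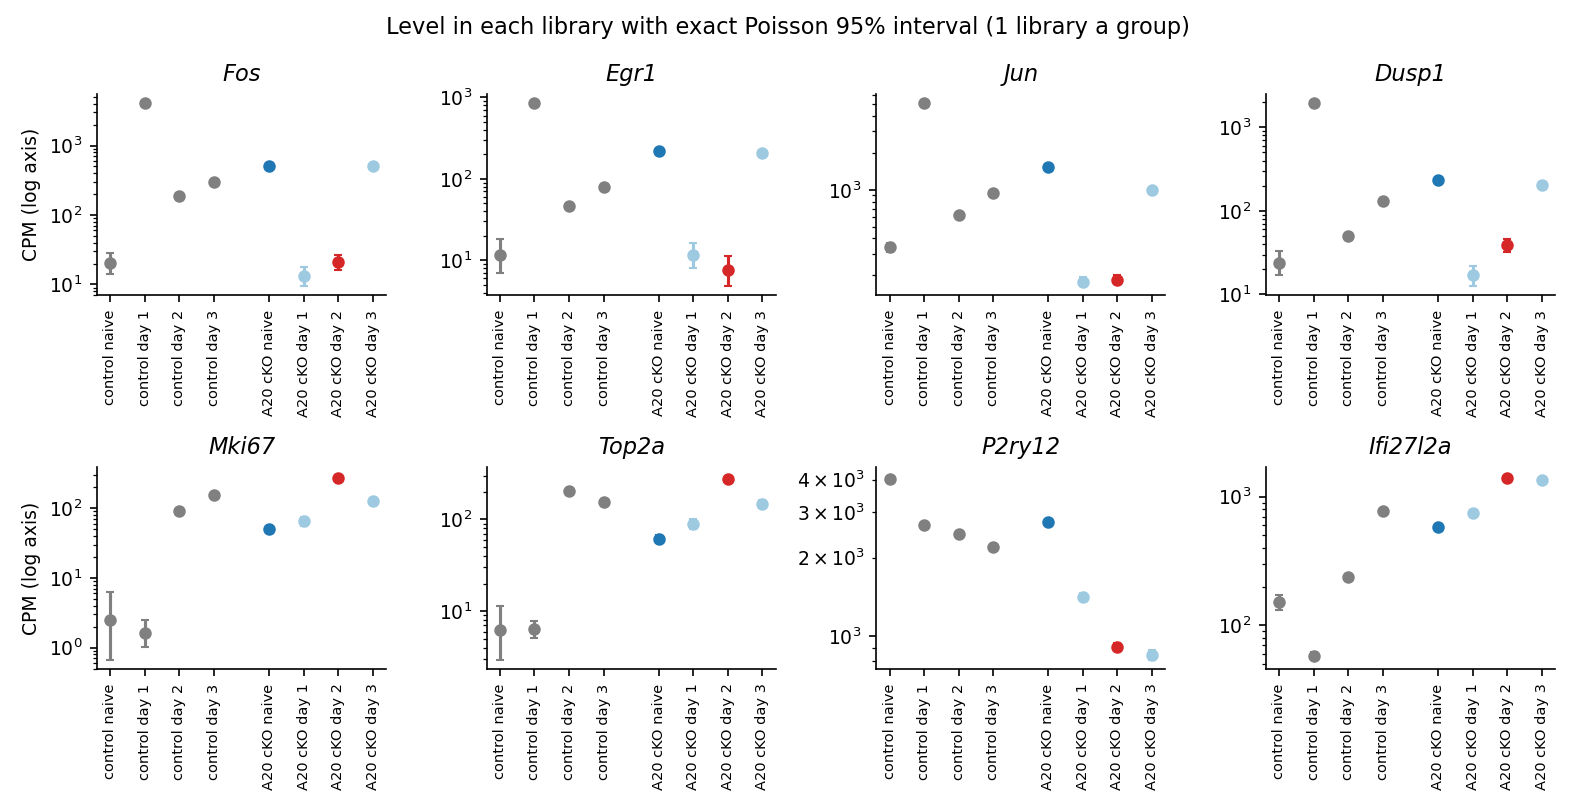
Level of 8 genes in CPM (log axes) in each of the 8 libraries with exact 95% Poisson intervals, A20 cKO naive in blue and A20 cKO day 2 in red. Fos, Egr1, Jun and Dusp1 are low on A20 cKO days 1 and 2 and high in A20 cKO naive and day 3, while Mki67 and Top2a are highest on A20 cKO day 2.

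Genes of resting microglia were lower on day 2 as a group. Of 31 measured homeostatic genes 28 had a ratio below 0, with intervals below 0 for all 28, and 8 were at least 2-fold lower, beside 2.65% of all measured genes, at a list median of −0.63. Fcrls, an Fc receptor-like gene typical of microglia, stood at 511.7 CPM in the naive library and 116.4 on day 2, and the fructose transporter Slc2a5 at 151.1 and 33.0 CPM. The purinergic receptor P2ry12, which senses injured tissue, stood at 2755 and 907.8 CPM (−1.60, −1.66 to −1.55), its relative Gpr34 at 1094 and 312.8 CPM, and the protease inhibitor Cst3 at 27465 and 12618 CPM. Tmem119 (2322 and 1697 CPM) and the growth factor receptor Csf1r (1720 and 1213 CPM) were lower by less than 2-fold. Tyrobp, Sall3 and Gpr84 had log2 ratios above 0, up to 0.36. Outside the list the transcription factor gene Sox4 (168.5 and 28.3 CPM), the membrane protein gene Csmd3 (332.1 and 85.7 CPM) and the interleukin-7 receptor Il7r (96.8 and 25.4 CPM) were among the 15 lowest ratios. The same genes stood on A20 cKO day 3 at 36.2, 83.03 and 22.04 CPM, near day 2.

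Interferon-stimulated genes were higher on day 2 by a modest factor across the list. All 41 measured members but Irf1 and Gbp7 had ratios above 0, 7 were at least 2-fold higher, beside 2.86% of all measured genes, and 0 lower, and the median log2 ratio was 0.70. Ifi27l2a stood at 586 CPM in the naive library and 1402 on day 2, Ifitm3, which blocks virus entry, at 780.6 and 1818 CPM, and Zbp1, a sensor of nucleic acids, at 85.2 and 202.4 CPM. Mnda went from 97.54 to 214.9 CPM and the viral restriction factor Bst2 from 637.2 to 1200.1 CPM. MHC class I and peptide loading genes moved less, with 0 of 19 past 2-fold, a median of 0.48, and B2m, the light chain of class I, at 8053 and 11198 CPM. MHC class II genes had 0 of 6 past 2-fold at a median of −0.17. Chemokines had 3 of 12 measured members at least 2-fold higher, beside the same 2.86%, at a median of 0.91: the monocyte attractants Ccl2 (201.3 and 477.3 CPM) and Ccl12 (1236 and 2751 CPM), and Ccl4 (209.4 and 446 CPM). Ccl5 stood at 1436 and 2756 CPM and Cxcl13 at 535.6 and 871.5 CPM, both under 2-fold.

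Those values sum over a naive library that was spread over a wide range, and day 2 cells lay mostly in the lower part of it. Per cell of 2000 UMIs, the homeostatic list gave a median of 134 UMIs in the naive library, with 10% of cells at or below 70 and 10% at or above 197. On day 2 the median was 75, with 10% of cells at or below 51.5 and 10% at or above 102. Interferon-stimulated genes gave a median of 6 UMIs in naive cells and 20 on day 2, and MHC class I genes 23 and 41. The naive distribution of homeostatic UMIs had a low and a high hump, and the day 2 distribution covered the low one. Cells were therefore divided at 90 homeostatic UMIs, the lower quartile of the naive library. This limit, and a second one at 27 MHC class I UMIs, the lower limit of 90% of day 2 cells, were chosen after the distributions were seen, and the cells on either side are ranges and not types. At or below 90 UMIs lay 665 of 2612 naive cells (25.5%), 42.05% of day 1 cells, 486 of 626 day 2 cells (77.6%, 74.2 to 80.8) and 73.2% of day 3 cells. In control naive 0 of 502 cells did, which allows a share of up to 0.598% (3 cells of the total). On control day 1 it was 1 of 3225 cells and on control day 2 13 of 3480, but on control day 3 225 of 1878 (11.98%). From 135 to 171 UMIs lay 654 naive cells (25.04%) and 3 day 2 cells (0.479%), and above 171 lay 650 naive cells and 0 day 2 cells. Within 9 UMIs of the limit lay 345 naive cells (13.2%) and 168 day 2 cells (26.8%).

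**Figure D4:**
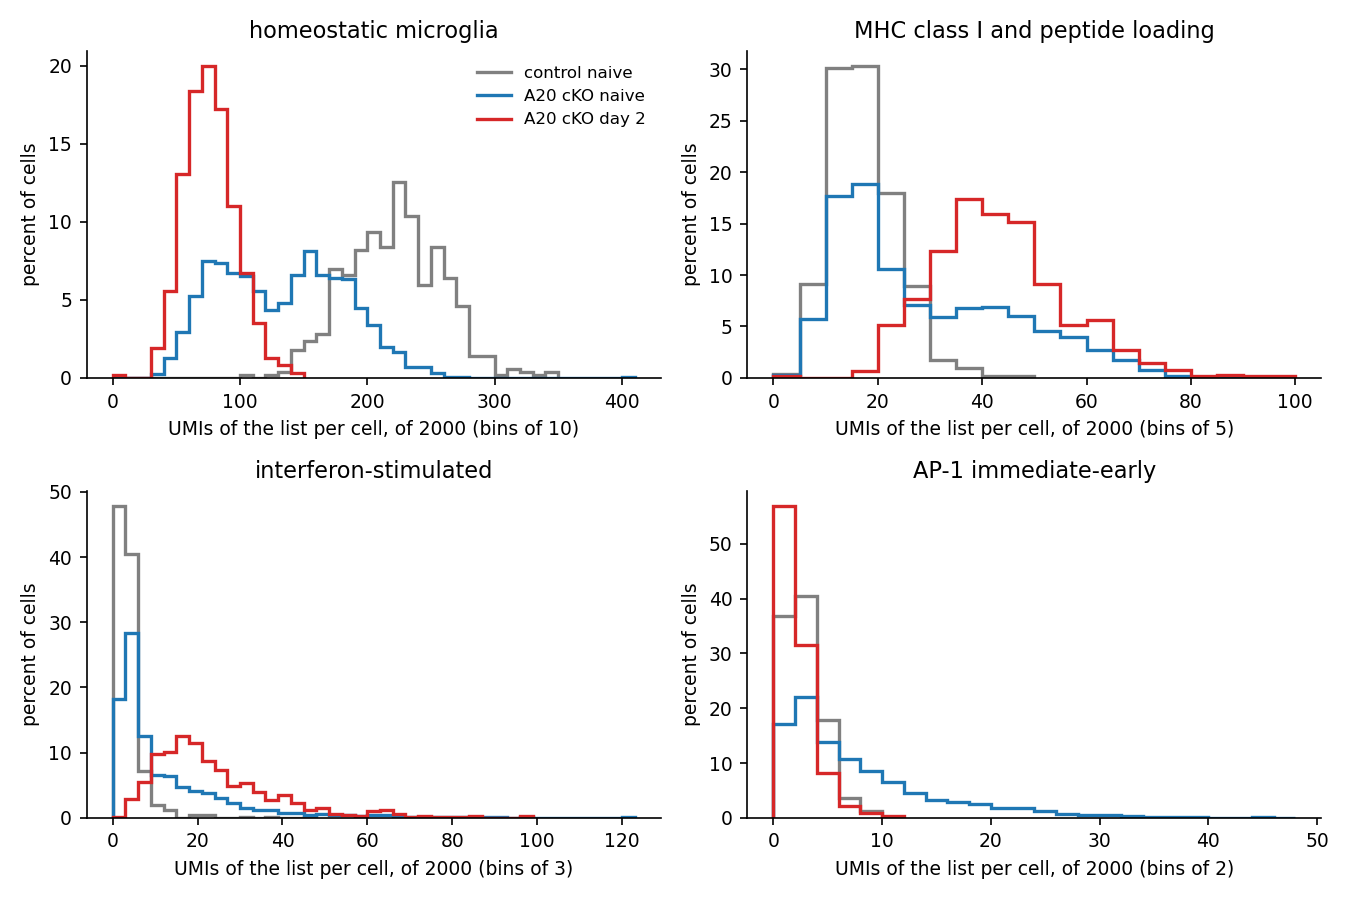
Distribution of cells by UMIs of 4 gene lists per cell, of 2000 UMIs a cell, in percent of the cells of control naive (grey), A20 cKO naive (blue) and A20 cKO day 2 (red). A20 cKO naive has a low and a high hump of homeostatic and MHC class I UMIs, day 2 lies over the low homeostatic and the high MHC class I hump, and for AP-1 genes day 2 lies at the lowest values.

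Naive cells already differed along this range. At or below 90 homeostatic UMIs, naive cells carried a mean of 25.3 interferon-stimulated UMIs, 42.7 MHC class I UMIs and 19.7 chemokine UMIs. Above 171 homeostatic UMIs, the highest quartile, naive cells carried 3.78, 16.7 and 2.51. The mitotic list followed the same order, with 1.79 UMIs in the lowest range and 0.223 in the highest, while AP-1 UMIs went the other way, from 4.46 to 9.17. Since every cell has 2000 UMIs, more of some genes leaves less room for others. On day 2 cells at or below 90 UMIs carried 25.5 interferon-stimulated, 42.2 MHC class I and 18.7 chemokine UMIs, close to naive cells of the same range, but 3.98 mitotic UMIs and 1.64 AP-1 UMIs.

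Compared within the range of at most 90 homeostatic UMIs, the libraries differed in fewer genes, and which groups differed changed. Of 6399 measured genes 84 (1.31%) were at least 2-fold higher on day 2 and 38 (0.594%) lower. Interferon-stimulated genes had 0 higher and 1 lower of 41 at a median log2 ratio of −0.20, chemokines a median of −0.10 with 1 of 12 lower, and MHC class I genes −0.12 with 0 of 19 past 2-fold, while the homeostatic genes chose the cells. Naive cells of the lowest homeostatic range carried more UMIs of these lists than those of the highest, as given above. Choosing on homeostatic UMIs therefore selects in part on these lists too, and their medians here are a description. Ifitm3 stood at 1668 CPM in these naive cells and 1938 on day 2 (0.22, 0.16 to 0.28), Ccl2 at 417.5 and 527.9 CPM, Ccl5 at 3689 and 2953 CPM and B2m at 11078 and 10989 CPM. Cst3 stood at 11467 and 11188 CPM and P2ry12 at 1070 and 777.3 CPM, though these genes set the limit. The mitotic list had 20 of 34 measured members at least 2-fold higher at a median of 1.09, with Mki67 at 125.3 and 319.9 CPM (1.35, 1.16 to 1.55). The DNA replication list had a median of 0.57 with 2 of 25 past 2-fold. The AP-1 list had 3 of 4 at least 2-fold lower at −1.77 and the EGR list 6 of 18 at −0.73, with Fos at 316.4 and 15.3 CPM (−4.35, −4.89 to −3.90). Within the range 35 naive cells (5.26%) and 72 day 2 cells (14.8%) were in the G2/M class, a difference of 9.55 points (6.06 to 13.3), and the S share was 4.36% and 4.12%, a difference of −0.246 points (−2.57 to 2.28).

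Cells with at least 27 MHC class I UMIs, chosen by MHC class I and not by homeostatic genes, were a second way to match the libraries. They were 1134 naive cells (43.4%) and 573 day 2 cells (91.5%), and 7.77% of control naive cells. Along the naive range above, interferon-stimulated and chemokine UMIs rose with MHC class I UMIs. Choosing on MHC class I UMIs therefore selects in part on those lists, and their medians here are a description. Of 7432 measured genes 102 (1.37%) were at least 2-fold higher and 50 (0.673%) lower. Interferon-stimulated genes had 0 of 41 past 2-fold at a median of −0.03, chemokines 0 of 12 at 0.08 and homeostatic genes 1 of 31 lower at −0.32. Mitotic genes had 26 of 33 higher at 1.25, and AP-1 genes 6 of 6 lower at −1.95. The G2/M difference was 6.94 points (4.31 to 9.91).

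**Figure D5:**
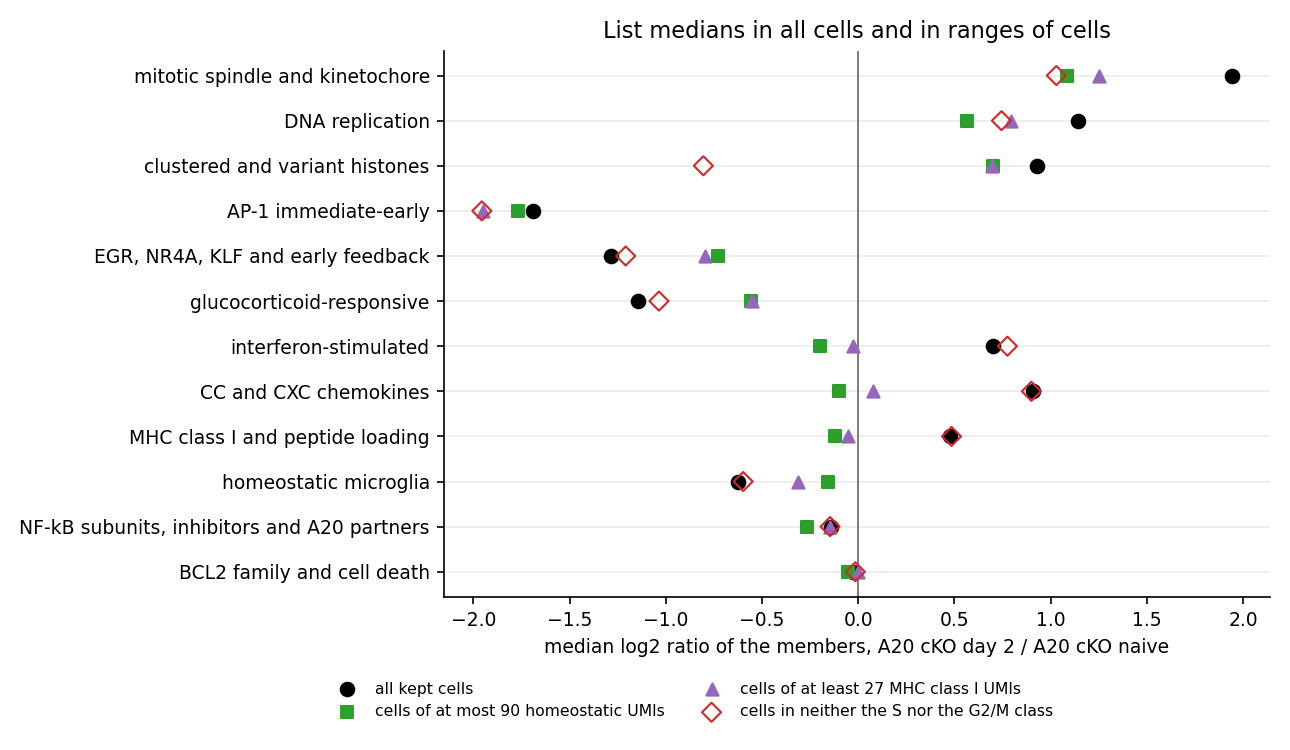
Median log2 ratio of A20 cKO day 2 to A20 cKO naive over the members of 12 lists (horizontal axis), in all kept cells (black), in cells of at most 90 homeostatic UMIs (green), in cells of at least 27 MHC class I UMIs (purple) and in cells outside the S and G2/M classes (open red). Interferon and chemokine medians lie nearer to 0 in both ranges than in all cells, as do the EGR median and the median of each list that chose the cells in its own range. AP-1 lies between −1.69 and −1.96 and mitotic genes lie above 1. The AP-1 medians rest on different members, 8, 4, 6 and 7 measured in the order of the settings above, so they are not a like comparison.

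In the pathway that A20 limits few transcripts passed 2-fold, as among all measured genes, of which 2.86% were at least 2-fold higher and 2.65% lower. Among NF-kB subunits, inhibitors and A20 partners 0 of 28 measured members were 2-fold higher or lower, a share near that background, with a median log2 ratio of −0.14 and a range from −0.90 to 0.40. The subunit Rela stood at 45.1 CPM in the naive library and 27.7 on day 2, and the inhibitor Nfkbia at 567 and 495.1 CPM (−0.20, −0.28 to −0.11). In the BCL2 and cell death group 1 of 19 was past 2-fold, the pro-death gene Bcl2l11, at 48.3 and 20.8 CPM. Of 18 measured cytokine and receptor genes 1 was at least 2-fold higher and 2 lower, the latter being Il6 (26.6 and 4.61 CPM) and Il7r. Il6 passed the minimum only through its naive UMIs and so had to be lower. Tnf stood at 54.2 and 56.0 CPM, and Il1b at 12.3 and 6.92 CPM.

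Il12b, the p40 chain of interleukin-12, had the highest ratio of all genes averaging 50 CPM or more, at 23.4 CPM in the naive library and 140.4 on day 2. It rested on few cells. Of the 426 UMIs on day 2, 44.8% came from 1 cell and 88.0% from 10, and of the 209 naive UMIs 68.4% came from 10. In control naive Il12b had 0 UMIs, and on A20 cKO days 1 and 3 it stood at 39.0 and 54.3 CPM. Cd244, a receptor of the SLAM family, stood at 33.4 and 111.7 CPM (1.74, 1.51 to 1.97) and was spread over cells, with 14.2% of its day 2 UMIs in 10 cells. It was the 1 member of 7 measured SLAM receptors past 2-fold, and stood at 3.70 and 108.9 CPM in control naive and day 2. In cells of at most 90 homeostatic UMIs its log2 ratio was 0.85 (0.56 to 1.15). Cd72, a lectin-like inhibitory receptor, stood at 160.3 and 441.7 CPM, the ion pump regulator Fxyd5 at 61.6 and 162.5 CPM and the carboxypeptidase Cpd at 48.5 and 127.2 CPM. Plac8, which monocytes also make, stood at 32.1 and 83.4 CPM.

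The remaining lists had few members past 2-fold. Of 24 measured genes of disease-associated microglia 2 were at least 2-fold higher, the protease inhibitor Cst7 (43.3 and 96.6 CPM) and the integrin Itgax (21.9 and 49.1 CPM), at a list median of 0.12. Apoe stood at 853.9 and 1573 CPM. Among complement genes and Fc receptors 2 of 16 were higher, C4b (19.7 and 44.5 CPM) and Cfb. The latter passed the minimum only through day 2 and so had to be higher. The ratios of C1qa, C1qb and C1qc were from 0.08 to 0.19. Among toll-like receptors and sensors 1 of 16 was lower, the endotoxin co-receptor Cd14, at 398.6 and 157.6 CPM. The glycolytic enzymes had 1 of 14 lower, the hexokinase Hk1 at 16.3 and 4.94 CPM. Hk1 passed the minimum only through its naive UMIs and so had to be lower. Idi1, an isomerase of cholesterol synthesis, stood at 11.8 and 26.7 CPM. These shares are to be read beside 2.86% and 2.65% of all measured genes.

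The other libraries are given by the values of the same lists. Against A20 cKO naive, A20 cKO day 1 had 1.56% of 8919 measured genes at least 2-fold higher and 1.39% lower, and day 3 had 1.92% and 2% of 8797. Against control naive, control day 2 had 5.92% and 6.28% of 9279. The mitotic median was 0.20 on A20 cKO day 1 with 0 of 29 measured members past 2-fold, 1.94 on day 2 with 39 of 39, 1.11 on day 3 with 20 of 31, and 4.40 on control day 2 with 41 of 41. The A20 cKO ratios share the naive library as their base. Its summed mitotic level was 596 CPM where control naive had 99.97, and on day 2 the sums were 2345 CPM in A20 cKO and 1744 in control. Interferon-stimulated genes had medians of 0.18, 0.70 and 0.84 on A20 cKO days 1, 2 and 3, with 0, 7 and 10 of 41 at least 2-fold higher, and −0.33 on control day 2 with 2 of 29 higher and 5 lower. AP-1 genes had 4, 6 and 0 of 8 at least 2-fold lower on A20 cKO days 1, 2 and 3, and on control day 2 2 of 8 higher. Homeostatic genes had 2, 8 and 7 of 31 at least 2-fold lower on the 3 A20 cKO days and 3 of 31 on control day 2. Differences between the genotypes in these values were not tested.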

How the data were processed

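Lumbar cord cells sorted for YFP were profiled with the 10x Genomics 3′ chemistry, for which the labels name kit v3.1 and the methods another version. The authors made UMI counts per gene and barcode with Cell Ranger 2.1.1 on mm10, per the submitters' processing notes, and deposited them as raw counts, 1 matrix for each of 8 libraries. How introns and strand were treated was not stated there. The sort gated out doublets of cells before loading. No doublet caller was run, so cells that shared a droplet were not removed. Groups came from the labels.

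UMIs of kept cells were summed per library and scaled to CPM, so sums and ratios carry counting error only, and with 1 library a group no test was made. Ratio intervals are exact conditional binomial, levels exact Poisson, shares Clopper-Pearson and differences of shares Newcombe, all at 95%. Genes needed 100 UMIs in both sums together, or 30 within the S and G2/M classes, and 2-fold was the limit for a call. Depth was 8919100 and 3033873 UMIs. Thinning drew 2000 UMIs a cell. The ratio and interval code was tested on simulated data. Python 3.11.15 with numpy 2.4.6, scipy 1.17.1, pandas 2.3.3 and matplotlib 3.10.9 was used, and edgeR 4.0.16 in R 4.3.3 for TMM factors as an alternative. Of 27998 gene IDs 98.7% were in the GENCODE annotation of GRCm38. Of the genes in 26 lists 6 were not matched (Mx2, Ifi207, Ifi209, Ifi211, Cxcl11 and Clec7a), and the marker Trac was not either.

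The libraries, gene lists and markers were chosen with earlier results of these data known. Genes were named by a rule: the 15 highest and 15 lowest ratios of genes averaging 50 CPM or more, leaving out mitochondrial, ribosomal, Xist, Y-linked and predicted genes; from each list the largest ratios and highest levels; all markers; Tnfaip3, Myc, Mki67 and Cdk1; and in the G2/M class the 5 highest and 5 lowest outside the cell cycle, histone and tubulin lists. Other genes named were chosen after their values were seen. A few that the rule names are not reported here.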

Additional observations from a re-analysis of the deposited data

Results flagged for a closer look

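For 6 named genes the ratio of day 2 to naive was at least 2-fold lower in A20 cKO and at least 2-fold higher in control, 1 library a side, and the difference was not tested. The log2 ratio of Egr1 was −4.82 in A20 cKO and 1.956 in control, and that of Fos −4.58 and 3.17. Fosb had −4.18 and 2.61. For Klf2 the ratios were −1.89 and 2.21, for Ier2 −2.19 and 1.20, and for Dusp1 −2.59 and 1.04. All 6 belong to the immediate-early lists, and their levels in the naive libraries differed, as given above for Fos and Egr1.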

How the results depend on the processing

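Limits come first. With 1 pooled library a group, animals, preparation and day cannot be told apart. No paired analysis was possible because each group has 1 library, and no replicate could be left out. The 2 cell ranges and the class limits of 2 and 4 core genes were chosen after seeing the data. The 255 higher genes became 114 without cells of the S and G2/M classes, 142 in sums thinned to 2000 UMIs a cell, 84 in cells of at most 90 homeostatic UMIs, 102 in cells of at least 27 MHC class I UMIs, 2031 with a minimum of 1 UMI and 95 with 300. The 236 lower genes became 38, 50, 1153 and 113 under the last 4 of these. Higher genes made up 51.9% of calls, 35.1% without class cells, 42.4% in thinned sums, 59.2% with ratios centred on their median (295 and 203 genes), 63.8% with a minimum of 1 UMI, 68.9% at most 90 homeostatic UMIs and 67.1% at least 27 MHC class I UMIs. TMM scaling gave 270 and 220 genes, and no barcode filter 263 and 237. The G2/M difference was 6.94 points in the MHC class I range. The S difference, 1.91 points, was 7.17 without thinning, 4.87 with a limit of 2 core genes, 0.402 in the MHC class I range and −0.246 at most 90 homeostatic UMIs. Ratios that changed sign past the limits were Ttr without shared barcodes (−0.32), Hist1h2ab and Hist1h2ap without class cells (−2.08 and −1.90) and Mnda at most 90 homeostatic UMIs (−0.027). The cause was not tested. Of 206 named ratios 199 stayed within their interval under TMM, 149 without class cells and 54 at most 90 homeostatic UMIs.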

Other observations

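Outside the lists, ribosomal protein genes and their processed copies also differed. These were picked after their values were seen. Of 81 ribosomal protein genes 1 was at least 2-fold higher on day 2, the median log2 ratio was 0.39 and the sum went from 93703 to 122888 CPM. Among 11 ribosomal protein pseudogenes 10 were at least 2-fold higher at a median of 1.53. Their medians were 1.45 on A20 cKO day 1 and 1.69 on day 3 against the same naive library, and −2.41 on control day 2 against control naive, with 11 of 11 at least 2-fold lower. Reads of such copies can be assigned to the parent gene or the copy. The 13 mitochondrial genes had a median of 0.45 on A20 cKO day 2.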
